A study of Mus musculus with 10 samples.

Results

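Signaling by fibroblast growth factors (FGFs) was followed through the transcripts of 10 genes in the lungs of newborn mice: the ligands Fgf7, Fgf9, Fgf10 and Fgf18, the receptors Fgfr1, Fgfr2, Fgfr3 and Fgfr4, and the feedback inhibitors Spry1 and Spry2. These members were picked by gene symbol, and all 10 were found among the 35275 genes of the expression table. The values are FPKM (fragments mapped to a gene, scaled to its transcript length and to all mapped fragments of the library), which allow levels to be set side by side between genes because they are scaled to length.

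The lungs came from CD1 pups at postnatal day 6, when the distal air sacs are being divided into alveoli. Dll4+/- pups carried 1 allele of Dll4 replaced by lacZ in the germline, so that the allele was missing from every cell and from conception onward. Dll4+/+ littermates with both alleles served as controls. No treatment other than genotype is given in the labels. Dll4 encodes a ligand of Notch receptors that is made mainly by endothelial cells. RNA was taken from whole right lungs, 1 pup per library, and 4 Dll4+/- libraries (replicates 1 to 4) were compared with 4 Dll4+/+ libraries (replicates 3 to 6). In either genotype 2 pups were labelled female and 2 male. In whole lung, fewer cells of a type and less RNA per cell cannot be told apart. The comparison asked whether the genes of FGF signaling differed in level when 1 copy of Dll4 was missing.

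FGFs are secreted proteins that bind receptor tyrosine kinases on neighboring cells together with heparan sulfate chains, and the activated receptor passes its signal through RAS and the kinase ERK. In the lung, FGF7 and FGF10 are made by mesenchymal cells and act mainly on the epithelial form of FGFR2, whereas FGF9 is made by the mesothelium and the early epithelium. FGF18 and the receptors FGFR3 and FGFR4 take part in the formation of alveoli and of elastic fibers in the postnatal mouse lung. Sprouty proteins are induced by ERK and in turn restrain RAS and ERK signaling, so that their transcripts belong to the feedback arm of the pathway.

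The total of fragments to which FPKM was scaled, recovered from the steps between FPKM values, was 17201662 to 22927840 per library. It is not the number of reads sequenced. In each library 13248 to 13721 genes had an FPKM of 1 or more. Dll4 itself was 11.4, 15.6, 20.7 and 11.6 FPKM in Dll4+/- replicates 1 to 4 and 22.7, 25.8, 30.7 and 31.3 FPKM in Dll4+/+ replicates 3 to 6. Every Dll4+/- library was thus below every Dll4+/+ library (two-sided exact permutation p = 0.0286, the smallest that 4 against 4 allow). The libraries differed from one another beyond genotype. Dll4+/- replicate 1 lay farthest from the median of the 8 libraries for 41.5% of the 13610 genes tested, Dll4+/+ replicate 3 for 24.5% and Dll4+/- replicate 4 for 23.0%. In Dll4+/- replicate 1 all 10 cell cycle genes examined were below every Dll4+/+ library, with a sum of 45.0 FPKM against 329 to 380 in Dll4+/+ and 278 to 354 in the other 3 Dll4+/- libraries, and all 8 glucocorticoid-induced genes were above every Dll4+/+ library. Dll4+/- replicate 4 had 8 of 10 alveolar type II markers above every Dll4+/+ library and 9 of 11 matrix fibroblast and 7 of 8 pan-endothelial markers below every one, and each gene of these 3 lists was above 0. One sex label was contradicted by the transcripts, since Dll4+/- replicate 2, labelled female, had 0.273 FPKM of Xist and 20.3 FPKM of Ddx3y. Results for the members are therefore given with and without Dll4+/- replicates 1 and 4. Dll4+/+ replicate 3 stays in both, and the Dll4+/- libraries that are kept, replicates 2 and 3, also differ from each other. The 7 cardiac muscle markers summed to 54.5 FPKM in replicate 2 and 738 FPKM in replicate 3, against 139 to 417 FPKM in Dll4+/+.

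The most abundant member in Dll4+/+ lung was Spry1, at 89.6 ± 14.3 FPKM (SD, n = 4 for this and the values that follow). Fgfr3 at 58.6 ± 5.99 and Fgfr4 at 57.3 ± 4.35 FPKM came next, followed by Fgfr2 at 40.7 ± 8.07, Spry2 at 30.6 ± 3.36, Fgfr1 at 25.1 ± 2.99 and Fgf18 at 23.2 ± 4.05 FPKM. Fgf10 at 7.94 ± 0.511, Fgf7 at 5.78 ± 1.004 and Fgf9 at 0.871 ± 0.111 FPKM were the lowest. The receptors and Sprouty genes thus ranked above the ligands, except that Fgf18 reached the level of Fgfr1. Among neighbors in this order the Dll4+/+ ranges overlapped for Fgfr3 and Fgfr4, for Fgfr2 and Spry2, for Spry2 and Fgfr1 and for Fgfr1 and Fgf18, so their order was not resolved by range. Even so, Fgfr2 was above Spry2 within each of the 8 libraries. Fgf18 exceeded Fgf10, and Fgf7 exceeded Fgf9, in 8 of 8 libraries with no overlap of their ranges over both genotypes. Of the 10 members, 9 passed the filter on low values (4 or more libraries with at least 1 FPKM), and Fgf9 did not.

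**Figure D1:**
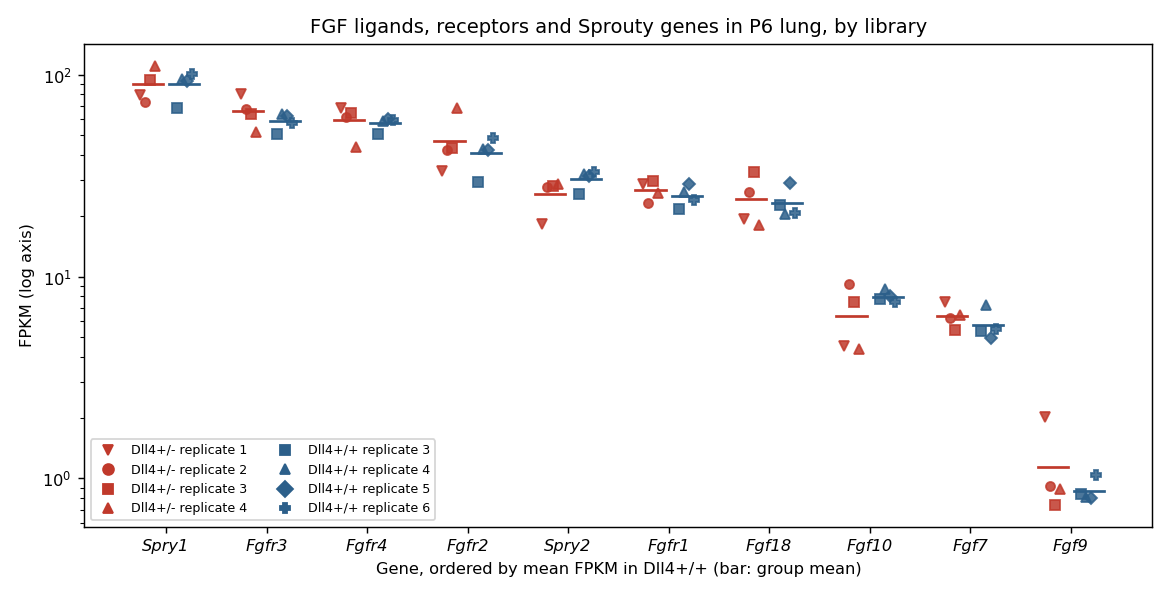
FPKM (log axis) of the 10 members in each library, with Dll4+/- in red, Dll4+/+ in blue, one symbol per replicate and a bar at the group mean. The genotypes overlap for every member, and Dll4+/- replicates 1 and 4 are the low points of Fgf10 at 4.51 and 4.40 FPKM.

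The starts of 4 members are shown because their transcripts gave the patterns described further on: Fgf10 and Spry2 were the members lowest in single Dll4+/- libraries, and Fgfr2 and Spry1 varied together. Each window holds the 250 bases before the RefSeq start site of the gene in build GRCm38.p6, written 5′ to 3′ on the strand of the gene, and capitals mark the motif GGGCGG or its reverse complement CCGCCC, the GC box bound by SP factors. The windows are chr13:118714449-118714698 on the plus strand for Fgf10, chr7:130266809-130267058 on the minus strand for Fgfr2, chr3:37639697-37639946 on the plus strand for Spry1 and chr14:105896820-105897069 on the minus strand for Spry2. Those of Fgf10 and Fgfr2 lie inside the GENCODE M21 gene models, which begin farther upstream, and that of Spry1 is covered by an exon of Gm42922, a transcript annotated on the opposite strand.
Fgf10: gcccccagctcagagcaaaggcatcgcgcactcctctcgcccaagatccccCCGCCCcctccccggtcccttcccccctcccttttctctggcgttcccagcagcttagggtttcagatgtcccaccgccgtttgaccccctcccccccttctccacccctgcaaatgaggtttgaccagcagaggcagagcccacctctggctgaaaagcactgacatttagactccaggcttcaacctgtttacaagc
Fgfr2: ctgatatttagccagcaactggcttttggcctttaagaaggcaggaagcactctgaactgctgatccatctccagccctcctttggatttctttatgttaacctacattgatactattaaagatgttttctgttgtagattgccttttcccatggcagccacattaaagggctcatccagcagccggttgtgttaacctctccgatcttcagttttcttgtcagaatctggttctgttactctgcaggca
Spry1: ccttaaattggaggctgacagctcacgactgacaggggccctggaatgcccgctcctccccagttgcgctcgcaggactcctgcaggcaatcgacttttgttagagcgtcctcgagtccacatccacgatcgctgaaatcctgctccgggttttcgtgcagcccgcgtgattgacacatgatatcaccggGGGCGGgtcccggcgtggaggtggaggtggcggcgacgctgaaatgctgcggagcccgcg
Spry2: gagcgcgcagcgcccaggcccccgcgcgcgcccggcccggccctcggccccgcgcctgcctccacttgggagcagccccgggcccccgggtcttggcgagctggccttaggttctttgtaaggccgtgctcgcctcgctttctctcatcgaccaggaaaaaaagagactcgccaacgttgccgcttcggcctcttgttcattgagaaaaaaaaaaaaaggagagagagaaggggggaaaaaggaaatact
The windows of Spry1 and Spry2 had the same GC content and CpG count, with 62.4% GC and 23 CpG dinucleotides in each. The Fgfr2 window had 44.0% GC and 2 CpG, and that of Fgf10 61.2% GC and 8 CpG, against a median of 52.4% GC over all 32851 mouse promoter windows of this length. RefSeq windows were at hand for 9 of the 10 members, all but Fgfr1, with 2 start sites for Fgfr3. GGGCGG, searched on both strands, was found in the windows of Fgf10, Fgf18, Fgfr3, Fgfr4 and Spry1 and in 32.7% of all windows. CCGGAAG is a strict form of the site bound by ETS factors such as the ERK-responsive ETV4 and ETV5. It was found on either strand in 0 of the members' windows and in 6.91% of all windows. As it had no match, no overlap between the motifs arose. Shorter and other forms of the site were not searched.

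No member differed between genotypes beyond the spread of the libraries. With limma on log2(FPKM + 1) and Benjamini-Hochberg adjustment over all 13610 genes, 0 of the 9 members tested and 0 of all genes were called at an adjusted p of 0.05, and voom on the recovered fragments also called 0, with 411 genes under an unadjusted p of 0.05. At an unadjusted p of 0.05, 0 of the 9 members passed, against 457 genes or 3.36% of all genes. The genotypes did not overlap in FPKM for 0 of the 10 members, against 3.12% of all genes tested. Of the 9 members, 6 had the higher mean in Dll4+/- and 3 the lower, with a median log2 fold change (Dll4+/- minus Dll4+/+) of 0.04 beside -0.02 over all genes. The intervals were wide enough to hold moderate changes in either direction, so these tests do not show that the levels were equal. By the same limma test Dll4 itself had a log2 fold change of -0.88 (SE 0.19, unadjusted p = 0.001, limma adjusted p = 0.811). The adjusted threshold thus did not call even the gene that had lost 1 allele.

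**Figure D2:**
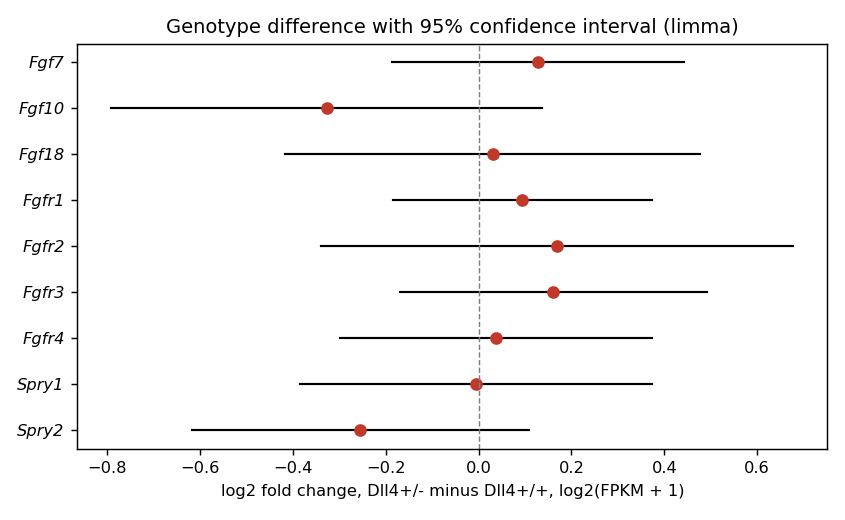
Log2 fold change of each member tested, Dll4+/- minus Dll4+/+ on log2(FPKM + 1), with its 95% confidence interval from limma. The 9 intervals all include 0, the lowest estimate being -0.33 for Fgf10 and the highest 0.17 for Fgfr2.

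Fgf10 had the largest SD of log2(FPKM + 1) within Dll4+/- among the 4 ligands, although the coefficient of variation of the scarcer Fgf9 was larger. FGF10 drives the budding of the airway epithelium in the embryo and is made after birth by lipofibroblasts among other mesenchymal cells. Its transcript was 4.51, 9.15, 7.49 and 4.40 FPKM in Dll4+/- replicates 1 to 4. In Dll4+/+ replicates 3 to 6 it was 7.70, 8.63, 7.998 and 7.44 FPKM. Dll4+/- replicates 1 and 4 were thus below every control, replicate 2 was above every control and replicate 3 lay within the controls. The log2 fold change was -0.33 (SE 0.21, 95% CI -0.79 to 0.14, limma adjusted p = 0.811), and without Dll4+/- replicates 1 and 4 it was 0.06 (SE 0.11, limma adjusted p = 0.896). When Dll4+/- replicate 2 alone was left out it became -0.50, with an unadjusted p of 0.022 and a limma adjusted p of 0.626.

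The spread of Fgf10 was 6.44% of the mean (coefficient of variation) over the 4 Dll4+/+ libraries and 36.5% over the 4 Dll4+/- libraries. On the log2 scale its SD ranked at the 17.9th percentile of all genes tested in Dll4+/+ and at the 81.9th percentile in Dll4+/-. The typical gene also spread more in Dll4+/-, with a median SD of 0.26 against 0.15 in Dll4+/+. In Dll4+/- replicate 4 the low Fgf10 went with a sum of 1178 FPKM over the 11 matrix fibroblast and lipofibroblast markers, against 1675 to 1809 FPKM in Dll4+/+, and with 618 FPKM over the 8 pan-endothelial markers, against 1049 to 1168 FPKM. In Dll4+/- replicate 1 the fibroblast sum was 1867 FPKM and the pan-endothelial sum 1236 FPKM, both above every control, while Fgf10 was as low as in replicate 4. The fibroblast list did not move as a whole there, as 5 of its 11 markers were above and 2 below every control, with a median deviation of -0.03. The part of these differences in the level of Fgf10 was not tested.

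Fgf10 was also the member with the largest difference between the labelled sexes in its genotype contrast. Among libraries labelled male the log2 fold change was -0.65 (SE 0.14, unadjusted p = 0.003, limma adjusted p = 0.153), which made it the 1 member of 9 under an unadjusted p of 0.05 there, against 17.2% of all genes. Among libraries labelled female it was -0.004 (SE 0.14, limma adjusted p = 0.99999), and 0 of 9 members were under an unadjusted p of 0.05, against 1.1% of all genes. The difference between the contrasts, female minus male, was 0.65 (SE 0.20, unadjusted p = 0.015, limma adjusted p = 0.580). Fgf10 was the 1 of 9 members under an unadjusted p of 0.05 for this interaction, against 7.61% of all genes. The Dll4+/- libraries labelled male are replicates 1 and 4, so sex as labelled cannot be told apart from the libraries that stand apart, and the label of replicate 2 is contradicted by its transcripts.

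Fgf7 (keratinocyte growth factor), which stimulates proliferation of alveolar type II cells, was 7.51, 6.21, 5.41 and 6.41 FPKM in Dll4+/- and 5.39, 7.25, 4.98 and 5.50 FPKM in Dll4+/+. The highest library was Dll4+/- replicate 1, and the ranges overlapped over most of their width. The genotypes differed by a log2 fold change of 0.13 (SE 0.14, 95% CI -0.19 to 0.44, limma adjusted p = 0.820) and 0.01 without Dll4+/- replicates 1 and 4. Fgf7 lies on chromosome 2, 6698696 bases from Dll4, whose targeted allele the Dll4+/- pups carry. The ratio of Fgf7 to Fgf10, ligands that share the epithelial FGFR2 isoform, was 1.67 in Dll4+/- replicate 1 and 1.46 in replicate 4. It was between 0.623 and 0.840 in the other 6 libraries, so that Fgf7 exceeded Fgf10 only in these 2 of the 8 libraries.

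Fgf18, a mesenchymal ligand of the alveolar stage, was 19.2, 26.4, 32.8 and 18.1 FPKM in Dll4+/- replicates 1 to 4 and 22.6, 20.4, 29.1 and 20.7 FPKM in Dll4+/+ replicates 3 to 6. Dll4+/- held both the highest library, replicate 3, and the lowest, replicate 4. With all libraries the log2 fold change was 0.03 (SE 0.20, 95% CI -0.42 to 0.48, limma adjusted p = 0.972). Without Dll4+/- replicates 1 and 4 it was 0.35 (SE 0.16, unadjusted p = 0.068, limma adjusted p = 0.849), from the 2 remaining Dll4+/- libraries. Fgf18 made up 55.0% to 67.8% of the summed FPKM of the 4 ligands in Dll4+/+ and 57.8% to 70.6% in Dll4+/-.

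Fgf9 was low in every library. It was 2.01, 0.912, 0.740 and 0.883 FPKM in Dll4+/-, from 128, 64, 46 and 65 recovered fragments. In Dll4+/+ it was 0.838, 0.812, 0.797 and 1.04 FPKM, from 48, 49, 44 and 66 fragments. Dll4+/- replicate 1 was above all the others, and the remaining 7 libraries lay between 0.740 and 1.04 FPKM. The group means were 1.14 ± 0.588 and 0.871 ± 0.111 FPKM (SD, n = 4 each, two-sided exact permutation p = 0.600), and the direction turned without Dll4+/- replicate 1, with a difference of -0.026 FPKM. In the same library the sum of the 6 mesothelial markers was the highest of the 8 at 361 FPKM, against 125 to 176 FPKM in Dll4+/+, although 3 of the 6 markers were above and 2 below every control, and its part in the level of Fgf9 was not tested. The 4 ligands together summed to 29.8 to 46.4 FPKM in Dll4+/- and 34.7 to 42.8 FPKM in Dll4+/+.

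Among the receptors, Fgfr2 varied most. FGFR2 is the receptor through which FGF7 and FGF10 reach the lung epithelium, and its epithelial and mesenchymal splice forms cannot be separated in values per gene. Fgfr2 was 33.2, 42.4, 43.2 and 68.4 FPKM in Dll4+/- replicates 1 to 4 and 29.3, 42.7, 42.6 and 48.4 FPKM in Dll4+/+ replicates 3 to 6. Dll4+/- replicate 4 was the highest library and Dll4+/+ replicate 3 the lowest, while 4 of the 8 libraries lay between 42.4 and 43.2 FPKM. Between genotypes the log2 fold change was 0.17 (SE 0.23, 95% CI -0.34 to 0.68, limma adjusted p = 0.850), and it was 0.09 without Dll4+/- replicates 1 and 4 and -0.03 without replicate 4 alone. In Dll4+/- replicate 4 the 10 alveolar type II markers summed to 42083 FPKM, against 20234 to 29887 FPKM in Dll4+/+ and 14170 to 22123 FPKM in the other 3 Dll4+/- libraries. The highest sum in Dll4+/+ was that of replicate 3, the library lowest for Fgfr2, although the median deviation of the 10 markers there was -0.08. The part of these markers in the level of Fgfr2 was not tested.

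Fgfr3 and Fgfr4, which together are needed for alveolar septa to form in mice, were nearly equal in level. Fgfr3 was 80.7, 67.7, 64.1 and 52.3 FPKM in Dll4+/- and 50.6, 63.6, 62.7 and 57.6 FPKM in Dll4+/+. Of the Dll4+/- libraries, replicates 1 to 3 were above every control and replicate 4 was below 3 of the 4 controls. Its log2 fold change was 0.16 (SE 0.15, 95% CI -0.17 to 0.49, limma adjusted p = 0.812), and 0.17 without Dll4+/- replicates 1 and 4, which moved it in opposite directions (0.06 without replicate 1 alone and 0.27 without replicate 4 alone). Fgfr4 was 68.1, 61.7, 64.4 and 43.9 FPKM in Dll4+/- and 50.8, 58.9, 60.1 and 59.4 FPKM in Dll4+/+. Here too replicates 1 to 3 were above every control, and replicate 4 was below every control. The log2 fold change of Fgfr4 was 0.04 (SE 0.15, 95% CI -0.30 to 0.37, limma adjusted p = 0.947), and 0.14 without Dll4+/- replicates 1 and 4. The ratio of Fgfr3 to Fgfr4 stayed between 0.970 and 1.19 in all 8 libraries.

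Fgfr1, the main mesenchymal FGF receptor, was the least variable member within Dll4+/-, with a coefficient of variation of 10.7%. It was 28.6, 23.3, 29.7 and 25.9 FPKM in Dll4+/- and 21.6, 26.3, 28.6 and 24.0 FPKM in Dll4+/+, so the ranges were nearly the same. Its log2 fold change was 0.09 (SE 0.12, 95% CI -0.19 to 0.37, limma adjusted p = 0.848), and 0.07 without Dll4+/- replicates 1 and 4.

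The receptor total was 190 to 211 FPKM in Dll4+/- (199 ± 8.71, SD, n = 4) and 152 to 194 FPKM in Dll4+/+ (182 ± 19.7, SD, n = 4), with overlapping ranges. Its makeup was steady in the controls, where Fgfr2 held 19.3% to 25.5%, Fgfr3 30.4% to 33.2%, Fgfr4 30.8% to 33.4% and Fgfr1 12.7% to 14.8% of the sum. In Dll4+/- the share of Fgfr2 ran from 15.8% in replicate 1 to 35.9% in replicate 4, beyond the controls at both ends. Replicate 1 also had the highest share of Fgfr3 at 38.3%, and replicate 4 the lowest shares of Fgfr3 at 27.4% and of Fgfr4 at 23.0%. Dll4+/- replicates 1 and 4 thus departed from the controls in opposite directions, and the share of Fgfr1 ranged only from 11.9% to 14.7% in Dll4+/-.

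**Figure D3:**
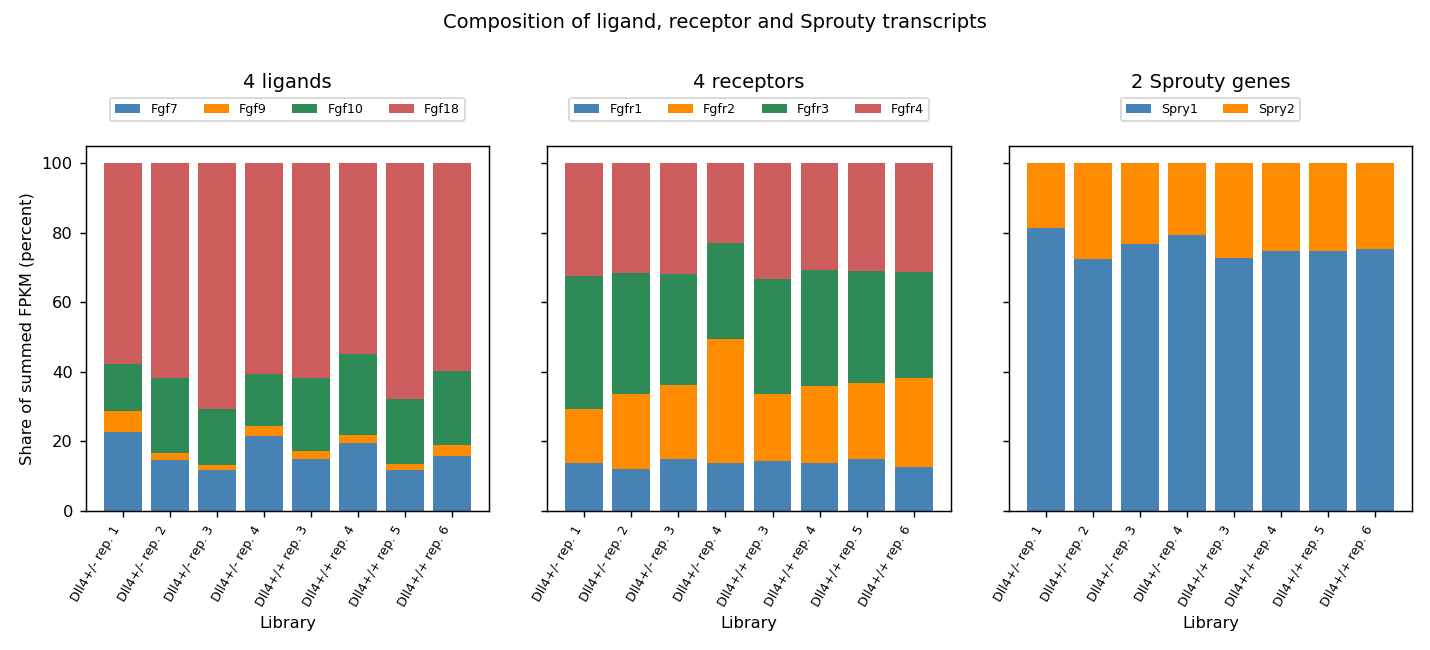
Share of each gene in the summed FPKM of the 4 ligands, the 4 receptors and the 2 Sprouty genes, as stacked bars in percent, 1 bar per library. Fgfr2 holds 15.8% of the receptor sum in Dll4+/- replicate 1 and 35.9% in Dll4+/- replicate 4, against 19.3% to 25.5% in Dll4+/+.

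Neither Sprouty gene passed the test, with group means of 25.8 ± 5.04 FPKM in Dll4+/- and 30.6 ± 3.36 FPKM in Dll4+/+ for Spry2 (SD, n = 4 each) and 89.4 ± 16.4 and 89.6 ± 14.3 FPKM for Spry1. SPRY2 and SPRY1 restrain ERK signaling downstream of FGF receptors, and SPRY2 limits airway branching in the embryonic mouse lung. Spry2 was 18.2, 27.9, 28.2 and 28.8 FPKM in Dll4+/- replicates 1 to 4 and 25.6, 32.1, 31.6 and 33.1 FPKM in Dll4+/+ replicates 3 to 6. All Dll4+/- libraries were below 3 of the 4 controls, replicate 1 was below all of them, and the overlap came from Dll4+/+ replicate 3. The log2 fold change was -0.25 (SE 0.16, 95% CI -0.62 to 0.11, limma adjusted p = 0.811, two-sided exact permutation p = 0.114). It was -0.12 (SE 0.12, limma adjusted p = 0.849) without Dll4+/- replicates 1 and 4.

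Spry1 was 79.8, 73.5, 93.9 and 111 FPKM in Dll4+/- and 68.7, 94.9, 93.5 and 101 FPKM in Dll4+/+. The highest library was Dll4+/- replicate 4 and the lowest Dll4+/+ replicate 3, as for Fgfr2. Its log2 fold change was -0.01 (SE 0.17, 95% CI -0.38 to 0.37, limma adjusted p = 0.994), and -0.09 without Dll4+/- replicates 1 and 4. The ratio of Spry1 to Spry2 was 2.68 to 3.06 in Dll4+/+. In Dll4+/- it was 2.64 in replicate 2 and 3.33, 3.84 and 4.37 in replicates 3, 4 and 1, so 3 of the 4 libraries were above every control.

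**Figure D4:**
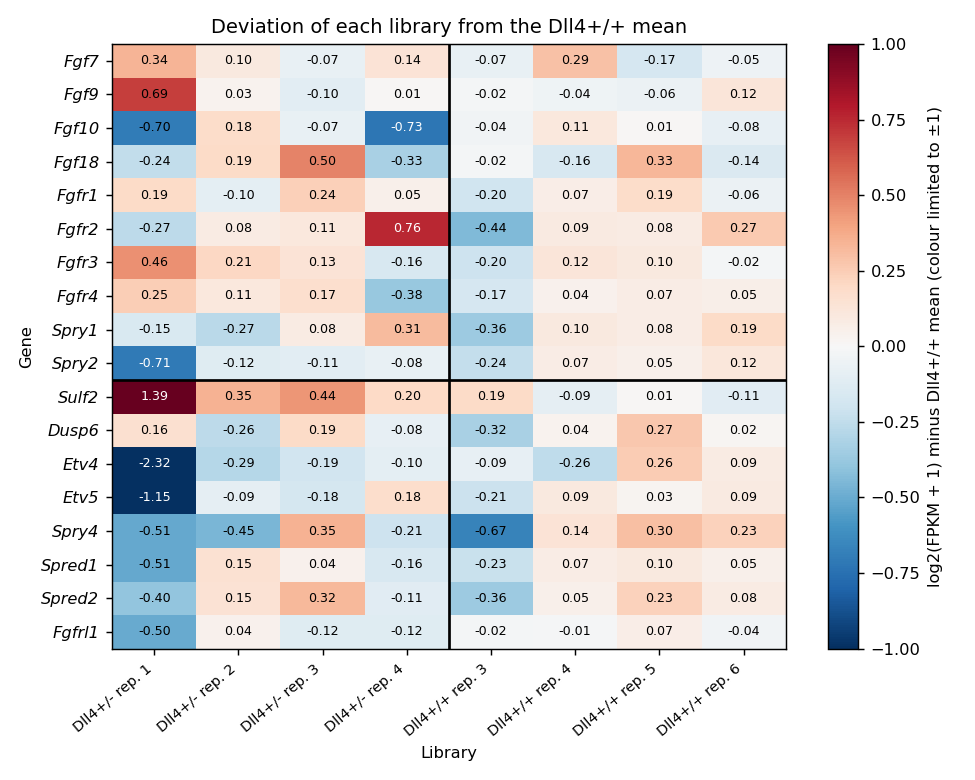
Deviation of each library from the Dll4+/+ mean on log2(FPKM + 1), for the 10 members above the line and 8 further pathway genes below it, with red for higher and blue for lower and the color limited to 1 unit. Dll4+/- replicate 1 is low for Etv4 (-2.32), Etv5 (-1.15), Spry2 (-0.71) and Fgf10 (-0.70) and high for Sulf2 (1.39), and Dll4+/- replicate 4 is low for Fgf10 (-0.73) and high for Fgfr2 (0.76).

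Across the 8 libraries, 36 pairs of the 9 members tested were compared on log2(FPKM + 1), with exact permutation over pairings and adjustment over the 36 pairs. Fgfr2 and Spry1 varied together, with Pearson's r = 0.85 (exact p = 0.006, adjusted p = 0.125) and Spearman's rho = 0.95 (exact p = 0.001, adjusted p = 0.041). Without the libraries farthest from the median of Fgfr2, Dll4+/+ replicate 3 and Dll4+/- replicate 4, r was 0.60, and without Dll4+/- replicates 1 and 4 it was 0.80. The promoter windows of these 2 genes, printed above, differed in base composition and in the GC box. Fgfr3 and Fgfr4 gave r = 0.85 (exact p = 0.007, adjusted p = 0.125) and rho = 0.88 (exact p = 0.007, adjusted p = 0.130), with r = 0.87 when Dll4+/+ replicate 3 and Dll4+/- replicate 1 were left out. Thus 1 pair passed the adjusted threshold by rank and 0 by Pearson's r, with 4 and 2 pairs under an unadjusted exact p of 0.05. The share over all pairs of genes was not computed, and the libraries that stand apart are shared by all genes. The counts of pairs are therefore not a result about these members. Spry1 and Spry2 gave r = 0.52 over 8 libraries (exact p = 0.185, adjusted p = 0.671) and 0.87 over the 6 without Dll4+/- replicates 1 and 4, and Fgfr2 with Fgfr4 went from -0.48 to 0.84 (exact p = 0.224, adjusted p = 0.671 over all 8). No batch is given in the labels, so within-batch values could not be computed.

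**Figure D5:**
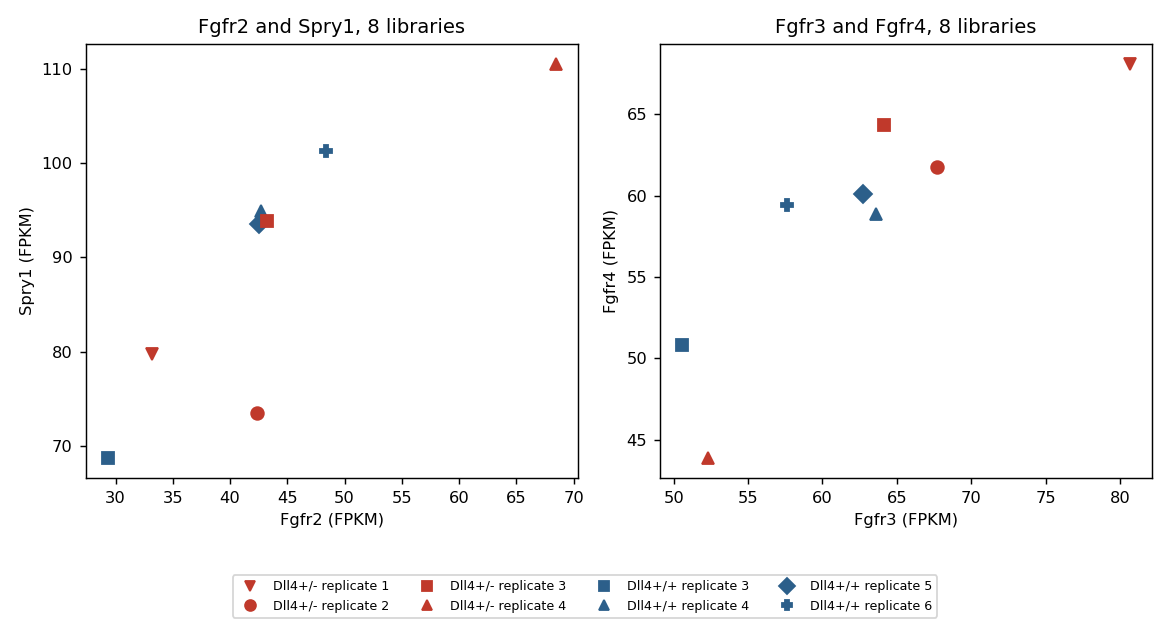
FPKM of Spry1 against Fgfr2 (left) and of Fgfr4 against Fgfr3 (right), with 1 point per library, Dll4+/- in red and Dll4+/+ in blue. Spry1 and Fgfr2 are both highest in Dll4+/- replicate 4 (111 and 68.4 FPKM) and both lowest in Dll4+/+ replicate 3 (68.7 and 29.3 FPKM).

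The genes whose levels were most like those of each member were taken from all 13610 genes tested by Pearson's r over the 8 libraries, as a description, since libraries that stand apart are shared by all of them. For Fgf10 they were Dctn4 (r = 0.99), Lsm11 (r = 0.99) and Kdelc2 (r = 0.98). For Fgf7 they were B4galt1 (r = 0.95), 3110043O21Rik (r = 0.93) and Arsg (r = 0.92), and for Fgf18 Tbc1d22b (r = 0.93), Tmem108 (r = 0.91) and Pde12 (r = 0.90). The receptor Fgfr1 was nearest to Asb13 (r = 0.95), Btbd19 (r = 0.94) and Fam149b (r = 0.93), and Fgfr2 to Faah (r = 0.99), mt-Co1 (r = 0.98) and Sorcs2 (r = 0.98). Fgfr3 was nearest to Fam65a, Rc3h1 and Arhgap6 (r = 0.98 each), and Fgfr4 to Cyyr1, Cdk14 and Nebl (r = 0.99 each). Spry1 was nearest to H2-Ea-ps (r = 0.97), Gm11611 (r = 0.95) and Gm10499 (r = 0.94), and Spry2 to Insig1, Zak and Dnajb4 (r = 0.98 each). No member was among the 3 nearest genes of another.

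Of 67 further pathway genes tested, 1 (1.49%) passed an unadjusted p of 0.05, against 3.36% of all genes, and the genotypes did not overlap in 2 of them, Sulf2 and Glce (Glce was named after its values were seen), against 3.12% of all genes. The shares for the pathway were thus no higher than for genes at large, and Sulf2 is described as the gene that the naming rule returned. Sulf2, a secreted sulfatase that removes sulfate groups from heparan sulfate and so alters the binding of FGFs, was 17.7, 8.07, 8.64 and 7.19 FPKM in Dll4+/- and 7.12, 5.68, 6.18 and 5.58 FPKM in Dll4+/+. Every Dll4+/- library was above every control, narrowly so for replicate 4, and replicate 1 was far above the others. The log2 fold change was 0.60 (SE 0.24, 95% CI 0.05 to 1.14, unadjusted p = 0.034, limma adjusted p = 0.811), and it was 0.33 when replicate 1 was left out and 0.39 without Dll4+/- replicates 1 and 4. Sulf2 belonged to a list of 21 heparan sulfate genes, of which 6 had the higher mean in Dll4+/- and 15 the lower, with a median of -0.12. Without Dll4+/- replicates 1 and 4 this became 16 higher and 5 lower with a median of 0.08, while all genes tested went from 6253 higher and 7357 lower to 7651 higher and 5959 lower.

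Among transcripts induced by ERK, Etv4 and Etv5 were below all other libraries in Dll4+/- replicate 1. Etv4, an ETS factor induced by FGF signaling at the tips of lung buds, was 3.14 FPKM in Dll4+/- replicate 1, 15.9, 17.1 and 18.3 FPKM in replicates 2 to 4 and 16.3 to 23.7 FPKM in Dll4+/+. Its relative Etv5, which is needed in alveolar type II cells and is also 1 of the 10 alveolar type II markers used here, was 22.0 FPKM in Dll4+/- replicate 1, 46.9, 44.1 and 56.7 FPKM in replicates 2 to 4 and 43.0 to 53.4 FPKM in Dll4+/+. The log2 fold changes were -0.72 (SE 0.44, limma adjusted p = 0.811) for Etv4 and -0.31 (SE 0.25, limma adjusted p = 0.811) for Etv5. They were nearer to 0 without that library, at -0.19 and -0.03, and were -0.24 and -0.13 without Dll4+/- replicates 1 and 4. Dusp6, a phosphatase that inactivates ERK and is a common readout of FGF signaling, was 86.7 FPKM in the same library, inside the Dll4+/+ range of 61.7 to 93.5 FPKM. The difference between genotypes was 0.00 on the log2 scale (SE 0.16, limma adjusted p = 0.999). Over the 10 genes of the ERK-responsive list, 8 had the lower mean in Dll4+/- and 2 the higher, and 0 passed an unadjusted p of 0.05. The median was -0.30, beside -0.02 over all genes tested, of which 7357 were lower and 6253 higher. Without Dll4+/- replicates 1 and 4 the median was -0.19, with 6 lower and 4 higher, and 1 gene then passed an unadjusted p of 0.05. It was Ier3, named after its values were seen, at -0.45 (SE 0.08, limma adjusted p = 0.849) without these libraries and 0.17 with them. In Dll4+/- replicate 1 alone the median deviation from the Dll4+/+ mean was -1.08, with 8 of 10 genes below it, against -0.18 to -0.08 in the other 3 Dll4+/- libraries and -0.30 to 0.22 in the controls.

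Of 9 other feedback inhibitors tested, 0 passed an unadjusted p of 0.05, 5 had the higher mean in Dll4+/- and 4 the lower, with a median of 0.00. Spry4, another Sprouty, had a log2 fold change of -0.21 (SE 0.25), and the Sprouty-related inhibitors Spred1 and Spred2 had -0.12 (SE 0.16) and -0.01 (SE 0.18), with limma adjusted p of 0.830, 0.847 and 0.992. Spry4 was lowest in Dll4+/+ replicate 3 at 17.2 FPKM, and all 9 inhibitors were below the Dll4+/+ mean in that library. Fgfrl1, an FGF receptor without a kinase domain, was 10.5 FPKM in Dll4+/- replicate 1, 14.0 to 15.8 FPKM in the other Dll4+/- libraries and 14.9 to 16.1 FPKM in Dll4+/+ (log2 fold change -0.17, SE 0.13, limma adjusted p = 0.811), with -0.07 on leaving out replicate 1 and -0.04 on leaving out replicates 1 and 4. Of the 5 co-receptors and FGF-binding proteins tested, Fgfrl1 included, 2 had the higher mean in Dll4+/- and 3 the lower. Of the 14 further ligands only Fgf1 passed the filter, at 17.2 to 25.8 FPKM in Dll4+/- and 23.1 to 30.7 FPKM in Dll4+/+, with a log2 fold change of -0.32 and an unadjusted p of 0.063. The 19 receptor adaptors and members of the RAS and ERK relay were split into 10 higher and 9 lower with a median of 0.02, between -0.16 and 0.29.

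Positions are those of GENCODE M21 on GRCm38. Exons of 5 members overlap exons of another gene, and the sources used here do not say if the strand of reads entered the counting. The overlaps are 123 bases with Gm16263 for Fgf10, 164 with Gm16159 for Fgfr1, 998 with G630022F23Rik for Fgfr3 and 710 with Gm42922 for Spry1, all on the opposite strand, and 314 bases with Ctbp2 on the same strand for Fgfr2. Reads from these stretches cannot be assigned to one gene of the pair. The stretches are a small part of annotated exon lengths of 2906 to 10328 bases in these 5 genes, except in Spry1 and Fgfr3. In Spry1 710 of 2906 bases are shared, and in Fgfr3 998 of 7158. The lengths inferred from the FPKM steps were shorter, at 4114 bases for Fgf10, 5041 for Fgfr1, 4429 for Fgfr2, 4245 for Fgfr3 and 2773 for Spry1. The shared part of the lengths behind the values may therefore be larger. Fgf10 lies at chr13:118669791-118792115 on the plus strand, Fgfr2 at chr7:130162451-133123350 on the minus strand, Spry1 at chr3:37639947-37644598 on the plus strand and Spry2 at chr14:105891947-105896819 on the minus strand.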

How the data were processed

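Total RNA from right lungs was poly-A selected, made into libraries with NEBNext Ultra reagents and sequenced as read pairs on a NovaSeq instrument, according to the study's methods. CASAVA, STAR and the build GRCm38.p4 are listed, without versions, in the submitters' processing notes. Values for 35275 genes are in FPKM, as the authors deposited them in 1 table for 8 libraries, 4 Dll4+/- and 4 Dll4+/+. The other 2 samples of the series, Dll4+/+ replicates 1 and 2, were not analysed here. A further 6 columns hold the authors' own comparison (group means, a ratio, its log2 and 2 p-value columns), and none was used. Zeros that had been replaced by an FPKM of 0.005 in 239 genes were set back to 0.

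Groups, sexes and replicate numbers came from the sample labels. The fragments per library to which FPKM was scaled were recovered from the FPKM steps. They gave whole numbers within a tolerance of 0.01 for 100% of the 13610 genes tested. At these totals 3 fragments of a transcript of 2000 bases correspond to 0.0654 to 0.0872 FPKM. The length that gives whole fragments was inferred for each gene, so its fragment counts may carry a constant factor that is the same in each library. Genes that reached 1 FPKM in 4 or more libraries were tested on log2(FPKM + 1) with limma 3.58.1 (R 4.3.3), with empirical Bayes moderation and a mean-variance trend, and Benjamini-Hochberg adjustment over all genes. The pseudocount of 1 understates changes of genes with low values. The test was designed for all samples with a column, with no covariate. Single values and pairs of members were compared by exact permutation in SciPy 1.17.1. The recovery and the test were first tested on simulated data. Libraries came from separate pups, so p-values measure the spread between animals, and litters were not modelled.

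Alternatives covered other pseudocounts, filters, scalings, voom, library weights, sex as a covariate, a replicate block and left-out libraries. The members, the pathway and marker lists and the alternatives were chosen with earlier results of these data known. Named genes were the 10 members, Dll4, pathway genes under an unadjusted p of 0.05, 7 listed pathway genes (Dusp6, Etv4, Etv5, Spry4, Spred1, Spred2 and Fgfrl1) and the 3 genes most like each member. Fgf1 was named as the only other ligand tested, after its values were seen, as were Glce and Ier3, and Xist and Ddx3y as a check of sex labels. Of the pathway symbols, Spry3 was not used here.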

Additional observations from a re-analysis of the deposited data

Results flagged for a closer look

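In 6 of 38 groups of 4 libraries, made of 19 genes in each genotype, a single library lay apart from the other 3 by more than Dixon's 95% limit. Chance alone sets apart about 1 in 20 independent groups, but these groups share the same libraries. The share over all genes was not computed, so the count is not a result about these genes. Over all genes tested, Dll4+/- replicate 1 lay farthest from the median for 41.5% and Dll4+/+ replicate 3 for 24.5%. Dll4+/- replicate 1 was the library in 4 of the 6 groups. It was high for Fgf9, at 2.01 FPKM with the other 3 between 0.740 and 0.912, and for Sulf2, at 17.7 FPKM with the others between 7.19 and 8.64. It was low for Spry2, at 18.2 FPKM with the others between 27.9 and 28.8, and for Etv4, at 3.14 FPKM with the others between 15.9 and 18.3.

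Dll4+/+ replicate 3 was the library in the other 2 groups. It was low for Fgfr4, at 50.8 FPKM with the other controls between 58.9 and 60.1, and for Spred1, at 19.5 FPKM with the others between 23.9 and 24.7.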

How the results depend on the processing

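The count of members called was 0 under each alternative run. Of 396 recomputed log2 fold changes of single genes, 352 kept their direction and their side of the threshold and 44 changed sign. Of 36 correlations between members, 18 changed sign without Dll4+/- replicates 1 and 4. The cause was not tested. The count of genes under an unadjusted p of 0.05, 457, was 933 with no filter on low values, 775 with library weights and 230 to 957 when 1 library was left out (957 and 707 on leaving out Dll4+/- replicates 2 and 3, 230 and 262 on leaving out Dll4+/+ replicates 3 and 4). Library weights called 3 genes and placed 1 member, Spry2, under an unadjusted limma p of 0.05 (limma adjusted p = 0.752). Leaving out 1 library placed 0 to 1 members there (Fgf10, without Dll4+/- replicate 2). The difference in Fgf9 ranged from -0.026 to 0.398 FPKM when 1 library was left out and was -0.045 FPKM without Dll4+/- replicates 1 and 4.

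Among log2 fold changes that changed sign, those with library weights were -0.023 for Fgf7, -0.0056 for Fgfr1, -0.0018 for Fgfr2, -0.14 for Dusp6, 0.0036 for Spred1 and 0.093 for Spred2. Without Dll4+/- replicates 1 and 4 they were 0.056 for Fgf10, -0.035 for Dusp6, 0.096 for Spred1 and 0.24 for Spred2. Spry1 was 0.00073, 0.015 and 0.037 with median-of-ratios, upper-quartile and quantile scaling, and Spred2 0.0088 with upper-quartile scaling. Leaving out 1 library gave -0.13 to 0.15 for Fgf18, -0.027 to 0.31 for Fgfr2, -0.033 to 0.18 for Fgfr4, -0.13 to 0.082 for Spry1, -0.11 to 0.090 for Dusp6, -0.21 to 0.012 for Spred1 and -0.13 to 0.12 for Spred2.

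The correlations that changed sign without Dll4+/- replicates 1 and 4 became, for Fgf7, 0.67 with Fgf10, -0.15 with Fgfr1, 0.0091 with Spry1 and 0.18 with Spry2. For Fgf10 they became -0.10 with Fgf18, 0.070 with Fgfr2, 0.58 with Fgfr3 and -0.037 with Spry2, and for Fgf18 0.10 with Fgfr2, 0.0024 with Spry1 and -0.31 with Spry2. Fgfr2 gave 0.70 with Fgfr3 and 0.84 with Fgfr4, Spry1 0.33 with Fgfr3 and 0.57 with Fgfr4, and Spry2 0.40 with Fgfr1, 0.33 with Fgfr3 and 0.40 with Fgfr4.

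Replicate numbers 3 and 4 occur in both genotypes, and the deviations of same-numbered libraries correlated at -0.23 and -0.06. Differently numbered libraries gave -0.26 to 0.21, so these values cannot tell if same-numbered libraries share a litter or batch. A replicate block over these 4 libraries called 18 genes and 0 members. It placed 496 genes under the unadjusted threshold of 0.05, against 457 with all libraries. Among them was 1 member, Fgfr2, with a log2 fold change of 0.61. The block holds the highest library for Fgfr2, Dll4+/- replicate 4 at 68.4 FPKM, and the lowest, Dll4+/+ replicate 3 at 29.3 FPKM. The block turned Fgf7 to -0.075, Fgfr4 to -0.041 and Spry1 to 0.33. Among the other pathway genes it turned Etv4 to 0.027, Etv5 to 0.059, Spry4 to 0.34, Spred1 to 0.019 and Spred2 to 0.26. The limma intervals of the members reach from -0.79 to 0.68 on the log2 scale. Fgf9 rested on 44 to 128 fragments per library.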
